A study of Homo sapiens with 4 samples.

Results

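The receptor tyrosine kinases described here are 53 genes in 18 families, taken from a list of gene symbols, by family membership and not by a threshold on these values, and matched by Ensembl identifier to 2 deposited lists of sites, out of 19922 protein-coding genes. All 53 have an entry in GENCODE release 29, and for 47 at least 1 of the lists holds a site, on either strand. The study sequenced the RNA that came down with PARP1, a poly(ADP-ribose) polymerase of the nucleus known for sensing damaged DNA, in HK-2 cells, an established line of human proximal tubule epithelium. It holds 2 PARP1 immunoprecipitations (IP 1 and IP 2), made with a Flag antibody, and 2 inputs of the same cells. The inputs were not analysed here, and the labels describe no IP with a control antibody and no treatment of the cells. Whether both IPs were made from 1 culture is not stated, and their spread may be purely technical.

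Most receptor tyrosine kinases, though not all of those listed here, cross the plasma membrane once and work as follows. Binding of a growth factor outside the cell brings receptors together, the kinase domains inside phosphorylate each other, and adaptor proteins that dock on the phosphotyrosines pass the signal to the RAS, PI3 kinase and PLC-gamma pathways. In renal tubules EGFR, MET and IGF1R are known for their part in repair after injury, while other families are best known from endothelium (the VEGF and Tie receptors), blood cells (KIT, FLT3 and CSF1R) or neurons (the Trk receptors and many Eph receptors).

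Each list gives single bases on 1 strand of GRCh38 where sequenced tags carried a mismatch, with the number of tags over the base, the number of mutated tags and a false discovery rate (FDR), all as the authors deposited them. A site is called sense when the authors placed it in an exon or intron of its gene on that gene's strand. IP 1 held 734 sites given to the receptor genes, 655 of them sense, of 166248 in all. IP 2 held 924, of which 729 were sense, of 229782. The median depth at a sense site of the receptors was 2 tags in both IPs, and the deepest had 14 tags in IP 1 and 18 in IP 2. With tags over listed bases and no values for the inputs, a gene that is transcribed more, a gene whose RNA was recovered more and a gene with more mismatched tags cannot be told apart. Nor can fewer cells with an RNA be told apart from less of it per cell. Of 8 markers of proximal tubule, GGT1, LRP2 and CUBN had sense sites in both IPs, while AQP1, ANPEP, SLC5A2 and SLC22A6 had none. The summed sense sites of these 8 genes were 7 in IP 1 and 16 in IP 2. Of 4 epithelial markers KRT18, KRT8 and CDH1 had sense sites in both IPs. None of the podocyte and distal nephron markers did, nor did PTPRC and CD3E, which mark leukocytes.

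Most receptor sites were intronic, and the sequence around an exon site can be read from the annotated transcripts. The following windows are shown because they hold the 2 exon bases of a receptor listed in both IPs and every other exon base with 4 or more mutated tags in 1 IP. All come from GENCODE release 29 transcripts (GRCh38), are written 5′ to 3′ on the strand of the gene, and have the listed base in capitals. The 2 bases of IGF1R, the receptor of insulin-like growth factor, lie at chr15:98961194-98961222 in the 3′ UTR and at chr15:98649017-98649045 in the 5′ UTR, both on the plus strand. The window of EGFR lies in coding sequence at chr7:55198717-55198754 on the plus strand and that of EPHA2 in coding sequence at chr1:16138148-16138185 on the minus strand. Those of LMTK2 (chr7:98209062-98209090, plus strand) and EPHB4 (chr7:100803018-100803046, minus strand) lie in 3′ UTRs.
IGF1R 3′ UTR: accccttggaataaCggcctctcctctcg
IGF1R 5′ UTR: cggcgagcggagccAggaggaggaggagg
EGFR coding sequence: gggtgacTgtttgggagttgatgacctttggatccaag
EPHA2 coding sequence: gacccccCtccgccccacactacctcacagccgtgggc
LMTK2 3′ UTR: gccagaggttgggcTtctgttagagtggc
EPHB4 3′ UTR: ttggggtttgtagtCccaacttgctgctg
At the 3′ UTR base of IGF1R a substitution was carried by 4 of 4 tags in IP 1 and by 4 of 15 tags in IP 2. At the 5′ UTR base an insertion was carried by 5 of 6 tags in IP 1 and 2 of 2 in IP 2, and this A is followed by 5 copies of GGA in a row in the transcript. The other 4 windows carried substitutions in 1 IP each. In IP 1 these were in 4 of 4 tags at EGFR and 5 of 5 at LMTK2. In IP 2 they were in 6 of 6 tags at EPHA2, at the last of 6 C in a row, and 4 of 5 at EPHB4.

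The first comparison asked how many receptor genes were marked, beside protein-coding genes as a whole. A sense site was listed in IP 1 for 42 of 53 receptors (79.2%), against 57.2% of all protein-coding genes, and in IP 2 for 41 (77.4%), against 61.1%. In both IPs it was 38 receptors (71.7%), against 50.8% of all protein-coding genes. A long gene has more room for a site, and these shares take no account of length. Per length the summed density of the receptors was below that of other genes in both IPs. Summed over their 9371 kb they held 0.699 sense sites per 10 kb in IP 1 (exact Poisson 95% interval 0.646 to 0.755) and 0.778 in IP 2 (0.723 to 0.836), against 0.767 and 0.925 for the other protein-coding genes. The intervals cover counting error only. Each gene was also ranked by this density against the protein-coding genes in its bin of span (10 bins). The median receptor stood at percentile 41.0 in IP 1 and 35.5 in IP 2, against 45.1 and 45.0 for all protein-coding genes. Genes with no site share the mean of their ranks, so a gene at 0 has a percentile above 0.

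The receptors were spread over the whole range rather than around that median. The genes AXL, EPHB2, EPHA2, EGFR and IGF1R stood at percentile 90 or above in both IPs, which is 5 receptors (9.43%), against 4.85% of all protein-coding genes. These 5 genes take up 8.47% of the summed span of the receptors. They held 39.1% of the receptor sense sites in IP 1 (256 of 655) and 36.2% in IP 2 (264 of 729). These are also the 5 genes of highest mean density, so a share of sites above their share of span follows from that choice. The densities of the 53 genes in the 2 IPs were correlated with rho = 0.838 (Spearman) and r = 0.852 (Pearson). The points are genes of the same cell line read by the same method, and over all 19922 protein-coding genes rho was 0.689.

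**Figure D1:**
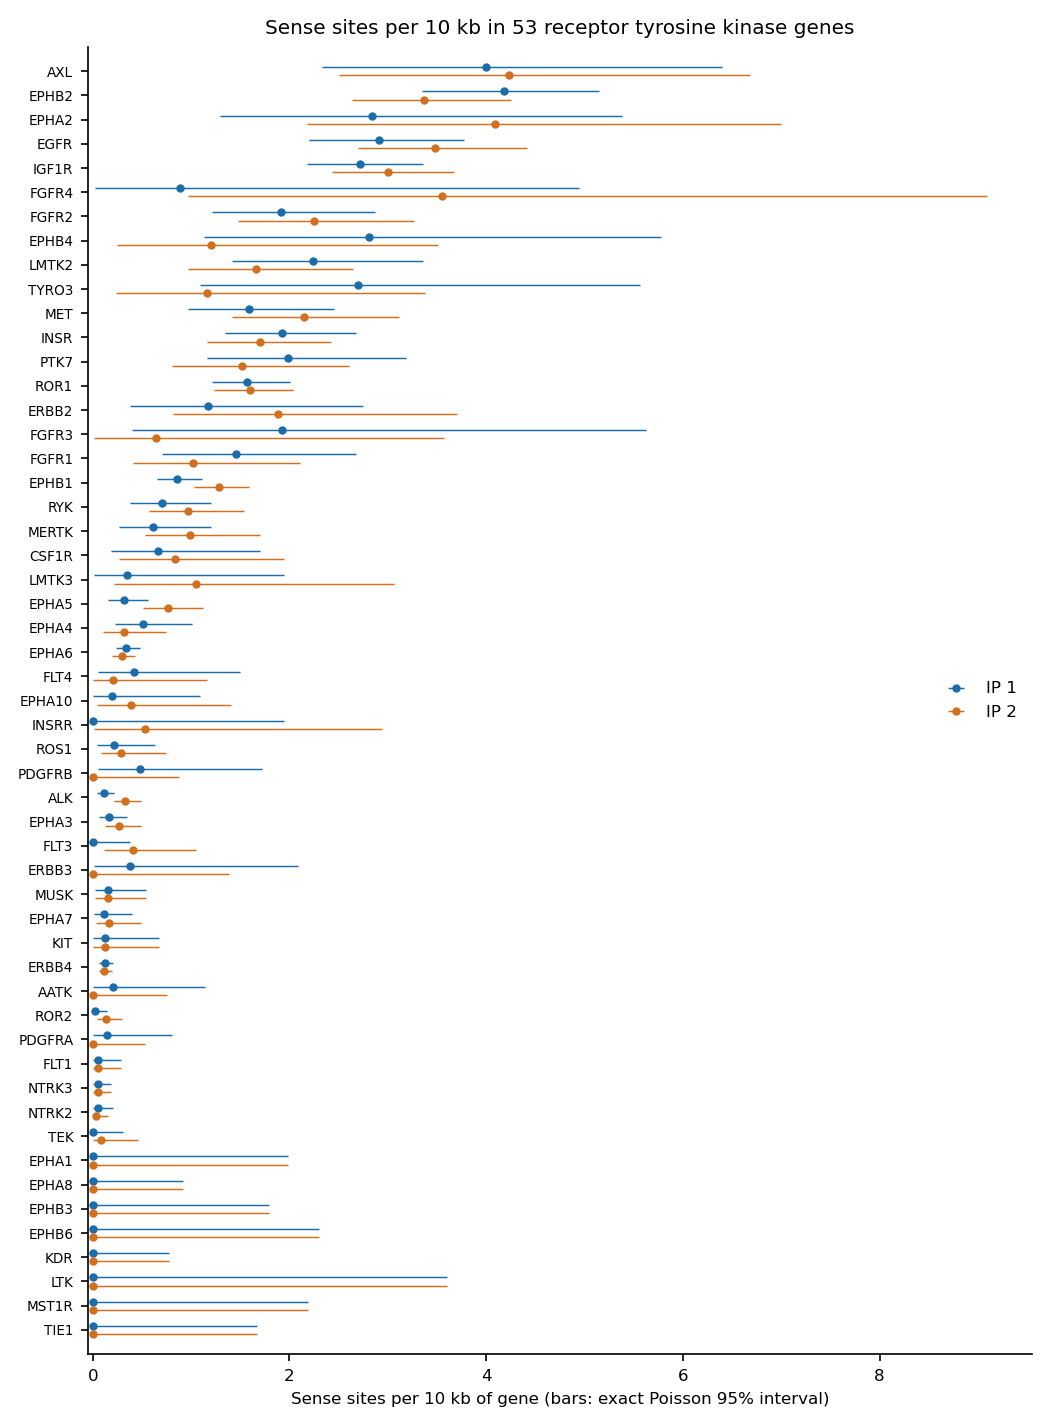
Sense sites per 10 kb of gene (x axis) for each of the 53 receptor genes (y axis, ordered by the mean of the IPs), as 1 point for IP 1 and 1 for IP 2 with exact Poisson 95% intervals. AXL, EPHB2, EPHA2, EGFR and IGF1R lie between 2.72 and 4.23 in both IPs, and the 8 genes at the bottom lie at 0.

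AXL, the receptor of the vitamin K-dependent ligand GAS6 (chromosome 19, 41219203 to 41261766, plus strand), had the highest mean density. It had 17 sites of the sense strand in IP 1 and 18 in IP 2 over 42.6 kb, which is 3.99 and 4.23 per 10 kb. AXL held no base listed in both IPs, and its tags summed to 71 in IP 1 and 90 in IP 2. EPHB2, a receptor of membrane-bound ephrin-B ligands (chromosome 1, 22710839 to 22921500, plus strand), carried 88 and 71 sense sites, or 4.18 and 3.37 per 10 kb. It was the only member of these 5 with fewer sites in IP 2, although IP 2 listed 1.22 times as many sense sites in all. EPHA2, a receptor of ephrin-A ligands (chromosome 1, 16124337 to 16156087, minus strand), carried 9 and 13 sites, or 2.83 and 4.09 per 10 kb. Its span of 31.8 kb leaves wide intervals of 1.30 to 5.38 and 2.18 to 7.00 per 10 kb.

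EGFR, the receptor of EGF and related ligands (chromosome 7, 55019021 to 55211628, plus strand), had 56 in IP 1 and 67 in IP 2, or 2.91 and 3.48 per 10 kb. Of the 67, the annotated span holds 65. The tags over them summed to 189 and 275. IGF1R (chromosome 15, 98648539 to 98964530, plus strand) carried 86 and 95, or 2.72 and 3.01 per 10 kb, with 287 and 327 tags. In IP 1 alone EPHB4 (2.81 per 10 kb) stood above IGF1R, and in IP 2 alone FGFR4 (3.55) did. The order within the 5 is not resolved, since the intervals of neighbours overlapped in both IPs all the way down the list of 53. Counting wider steps, the interval of EPHB2 lay wholly above those of 37 receptors in both IPs, the first of them INSR. For EGFR this held for 33 receptors and for IGF1R for 32, in each case from ROR1 down. For AXL it held for 34 and for EPHA2 for 24. These intervals count each listed base as independent. The 86 and 95 sites of IGF1R fall into 64 and 80 runs of bases within 10 of each other. The intervals may therefore be too narrow, and the steps were not recounted on runs.

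**Figure D2:**
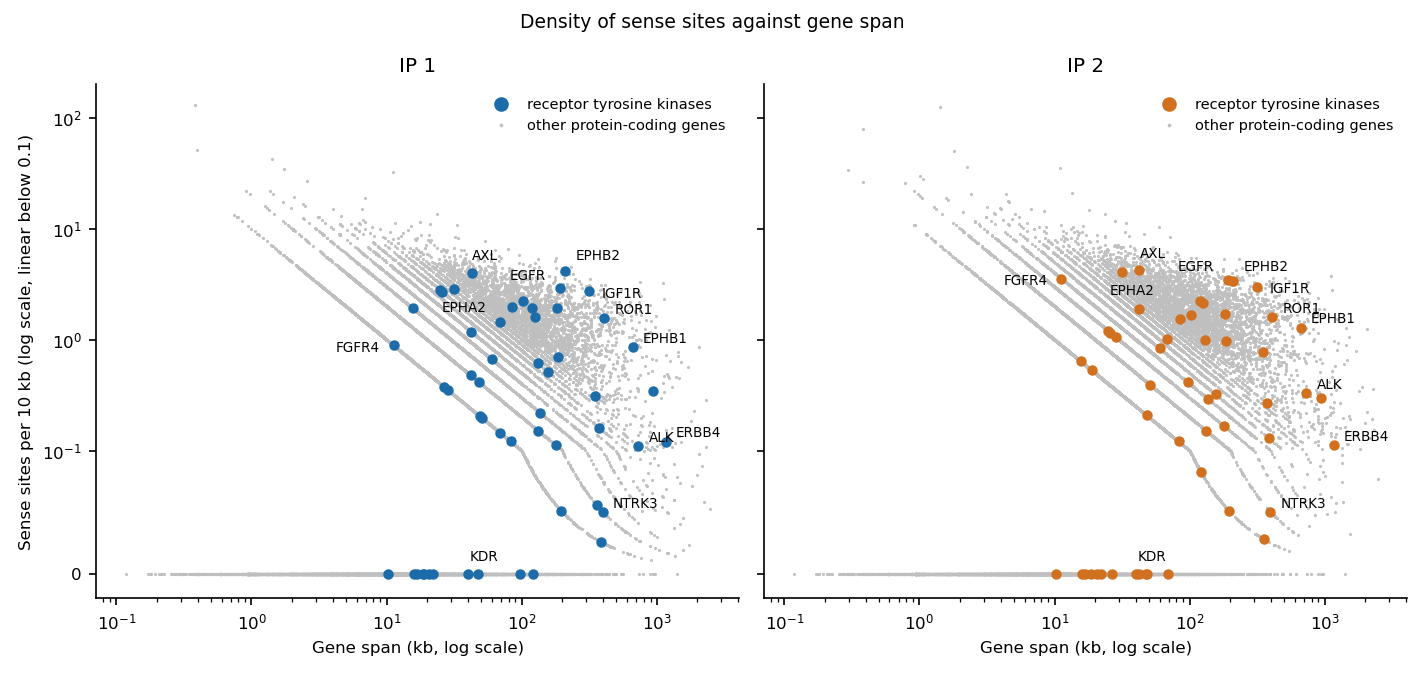
Sense sites per 10 kb (y axis, log scale, linear below 0.1) against gene span in kb (x axis, log scale) for the receptor genes (coloured) and all other protein-coding genes (grey), in IP 1 (left) and IP 2 (right). The diagonal lines of points are genes with 1, 2 or more sites; EPHB2, EGFR and IGF1R lie near the upper edge of genes of their length (percentile 96.9 or above), and NTRK3 low (percentile 18.3 in IP 1 and 9.71 in IP 2).

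The next 10 receptors by mean density were FGFR4, FGFR2, EPHB4, LMTK2, TYRO3, MET, INSR, PTK7, ROR1 and ERBB2. ROR1, a receptor-like kinase that binds WNT5A, had the closest values in the IPs among these 10, with 64 sense sites in IP 1 and 65 in IP 2 over 407.5 kb, or 1.57 and 1.60 per 10 kb. INSR, the insulin receptor, carried 35 and 31 sites (1.93 and 1.71 per 10 kb), and FGFR2, a receptor of fibroblast growth factors, 23 and 27 (1.91 and 2.25). MET, the receptor of hepatocyte growth factor, carried 20 and 27 (1.59 and 2.14). The kinase LMTK2 carried 23 and 17 (2.24 and 1.65), and PTK7, whose kinase domain is inactive, 17 and 13 (1.99 and 1.52). The short genes rest on few sites. FGFR4 had 1 site in IP 1 and 4 in IP 2, EPHB4 and TYRO3 each had 7 and 3, and ERBB2, which binds no ligand of its own, had 5 and 8. Among the 15 densest receptors, EPHB4 (SLC12A9) and ERBB2 (MIEN1 and PGAP3) overlap another protein-coding gene in the annotation, and how the lists divide sites there was not tested.

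The second comparison set the receptor families side by side. Families have 1 to 9 genes, which are not replicates, and sites and spans were summed within each. The insulin receptor family was highest, with 2.34 sense sites per 10 kb in IP 1 (interval 1.94 to 2.80) and 2.46 in IP 2 (2.05 to 2.92). It was made up almost wholly of IGF1R and INSR, since INSRR, the insulin receptor-related receptor, had 0 and 1 sites. This order depends on which sites count. With only sites of 3 or more mutated tags, the density relative to all protein-coding genes (mean of the IPs) was 3.53 times for PTK7, 3.13 for EphB and 2.21 for LMTK, against 2.18 for the insulin family. With all sites it was 2.12, 1.98, 1.51 and 2.86 for the same families. Few sites have 3 or more mutated tags. PTK7 is 1 gene with 4 such sites in IP 1 and 1 in IP 2. In the LMTK family all of them lay in LMTK2, 4 in IP 1 and 3 in IP 2. The order of the families at this setting is thus not resolved. The FGF receptors had 1.72 and 1.81 per 10 kb and all 4 genes were marked in both IPs. FGFR1 had the lowest mean, with 10 and 7 sites (1.46 and 1.02 per 10 kb), and FGFR3 had 3 and 1. In the TAM family (1.60 and 1.70 per 10 kb) AXL and TYRO3 stood above MERTK, a receptor of phagocytes and epithelia that clears dying cells, which had 8 and 13 sites (0.610 and 0.992 per 10 kb).

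Members of 1 family lay far apart in the ErbB and Eph families. ERBB4, a receptor of neuregulins, has the longest span of the 53 genes, 1163 kb, with 14 sense sites in the first IP and 13 in the second. That is 0.120 and 0.112 per 10 kb, with intervals of 0.0658 to 0.202 and 0.0595 to 0.191, wholly below those of EGFR in both IPs. ERBB3, whose kinase is nearly inactive, had 1 and 0 sites. The summed ErbB density was 0.533 and 0.618 per 10 kb, and EGFR alone gave 56 of its 76 sites in IP 1 and 67 of 88 in IP 2. Relative to all protein-coding genes the family stood at 0.682 times with all sites and at 1.32 times with only those of 3 or more mutated tags.

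The EphB receptors (1.63 and 1.70 per 10 kb) together held 152 and 159 sites, of which EPHB2 gave 88 and 71 and EPHB1 57 and 85. EPHB3 and EPHB6 had none. The 9 EphA receptors together held 69 and 88 sites (0.322 and 0.411 per 10 kb), and EPHA2 was the densest of them. EPHA5 carried 11 and 27 sites and EPHA6 32 and 28, but over 350.9 and 937.9 kb, so that their densities were 0.313 and 0.769 for EPHA5 and 0.341 and 0.299 for EPHA6. EPHA1 and EPHA8 had no sense site. The EphA and EphB intervals did not overlap in either IP (0.251 to 0.408 against 1.38 to 1.91 in IP 1). They treat the summed sites of a family as 1 count and leave out the spread among its genes. Gene by gene the families overlapped, with EPHA2 (2.83 and 4.09 per 10 kb) above EPHB1 (0.860 and 1.28).

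EPHB1 also needs its annotation stated. In GENCODE release 29 it spans 662.7 kb, which makes its densities (0.860 and 1.28 per 10 kb) depend on where the gene begins. The first sense site lay 199.4 kb from the annotated 5′ end in IP 1 and 197.6 kb in IP 2, and no site nearer to it was assigned in either list. On the same strand before that point the lists held 8 and 16 sites, and gave none of them to EPHB1. The gene length in RefSeq is 465.2 kb, with which the densities become 1.23 and 1.83. RYK, a pseudokinase that binds WNT ligands, likewise has a GENCODE span of 185.4 kb and a RefSeq length of 93.7 kb. Its 13 and 18 sites make 0.701 and 0.971 per 10 kb with the first and 1.39 and 1.92 with the second.

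**Figure D3:**
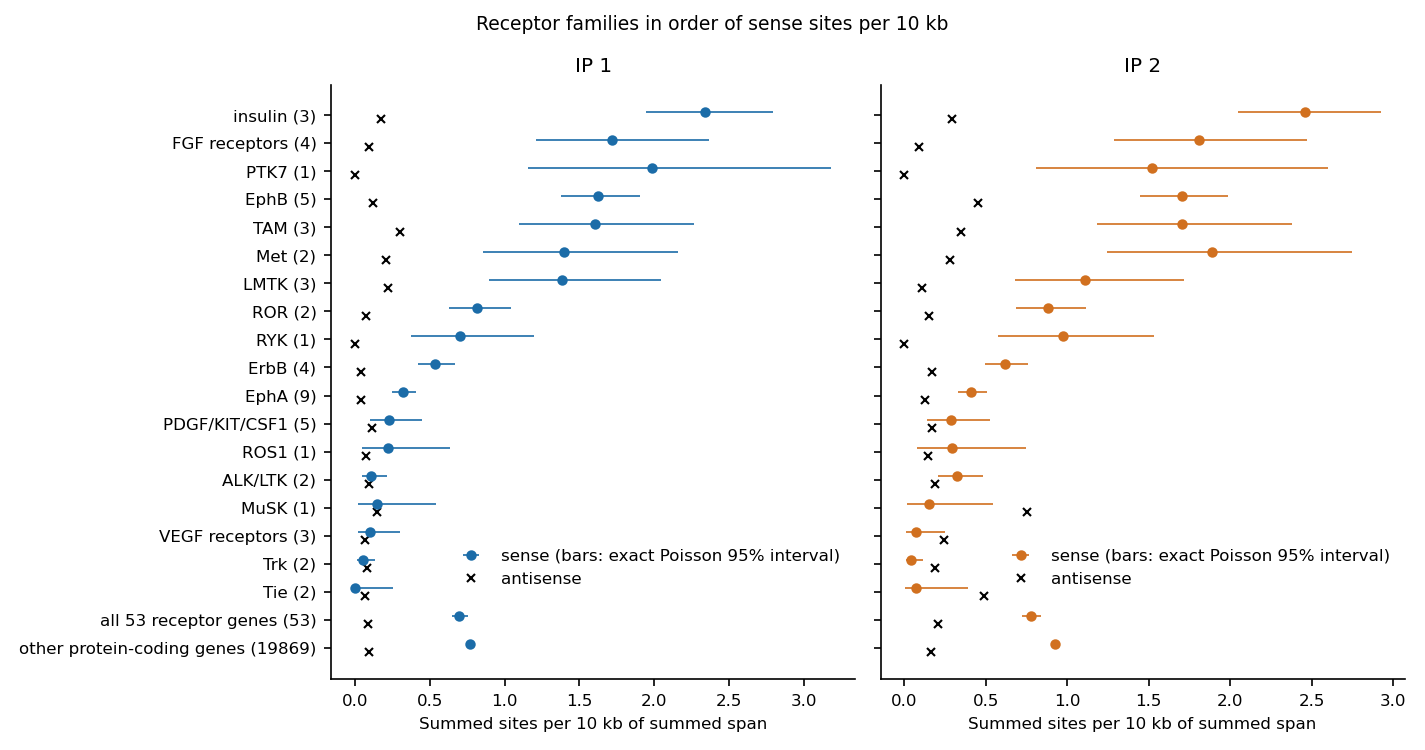
Summed sense sites per 10 kb (circles, with exact Poisson 95% intervals) and antisense sites per 10 kb (crosses) for each receptor family (y axis, number of genes in brackets), for all receptors and for other protein-coding genes, in IP 1 (left) and IP 2 (right). From the insulin family down to EphA the circles lie to the right of the crosses, and for the Trk and Tie families they lie to the left in both IPs.

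Sites on the opposite strand give a level against which low sense counts can be read. Over all receptors the antisense sites numbered 0.0843 per 10 kb in IP 1 and 0.208 in IP 2, against 0.0960 and 0.166 in other protein-coding genes. The sense share of all sites given to the receptors was 89.2% in IP 1 (exact binomial interval 86.8 to 91.4) and 78.9% in IP 2 (76.1 to 81.5), against 88.9% and 84.8% for other protein-coding genes. The lower share in IP 2 went with a higher antisense count in that library as a whole, and in the receptors EPHB1 gave 25 and EPHB2 16 of the 195 antisense sites of IP 2. Their part in the difference was not tested. More sense than antisense sites in both IPs were found for 28 receptors. Neither this count nor the list that follows was made over all protein-coding genes, so neither sets the receptors apart from other genes. Among receptors with an antisense site in either IP, AATK, EPHA1, FLT1, MUSK, NTRK2, ROR2, TEK and TIE1 had no more sense than antisense sites in both IPs.

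The receptors best known from endothelium were at that level. Of the endothelial markers, PECAM1 had 2 sense sites in each IP, CDH5 0 and 1, and EMCN none. FLT1, KDR and FLT4, the VEGF receptors, held 3 and 2 sense sites over 290.3 kb, with 2 and 7 antisense. TEK and TIE1, the angiopoietin receptor and its relative, held 0 and 1 sense sites over 143.2 kb, with 1 and 7 antisense. The neurotrophin receptors NTRK2 and NTRK3 held 4 and 3 sense sites over 755.5 kb (0.0529 and 0.0397 per 10 kb), with 6 and 14 antisense. MUSK, the receptor that organises the neuromuscular synapse, had 2 sense sites in each IP and 2 and 10 antisense.

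The receptors of PDGF, stem cell factor, CSF1 and FLT3 ligand held 8 and 10 sense sites, with 4 and 6 antisense. Their summed sense density was 0.228 and 0.285 per 10 kb, against 0.767 and 0.925 for other protein-coding genes. CSF1R, the macrophage growth factor receptor, had the most sense sites, 4 and 5, at percentiles 49.9 and 50.1 for its span. KIT had 1 in each IP. PDGFRA had 1 and 0 and PDGFRB 2 and 0. AATK, the lowest of the LMTK kinases, had 1 and 0. ALK, a receptor of the developing nervous system, differed between the IPs, with 8 and 24 sense sites, and its antisense sites were 7 and 14. ROR2, which is related to ROR1 and spans 387.1 kb, had 1 and 5 sense sites and 3 and 9 antisense. Its sense density was 0.0258 and 0.129 per 10 kb, and 0.0439 and 0.220 with its RefSeq length of 227.6 kb.

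No sense site in either IP was listed for EPHA1, EPHA8, EPHB3, EPHB6, KDR, LTK, MST1R and TIE1, which is 15.1% of the receptors, against 32.5% of all protein-coding genes. They are short genes, 191.9 kb together. A count of 0 allows up to 3 sites per IP by the usual one-sided limit, which is 0.634 per 10 kb for KDR and 2.93 for LTK. The upper bounds of the 2-sided intervals plotted above are higher, 0.779 for KDR, 0.922 for EPHA8 and 3.60 for LTK. For LTK a difference from a density such as that of IGF1R was not detectable at this depth. For KDR and EPHA8 both limits lie below the lower interval bounds of AXL, EPHB2, EPHA2, EGFR and IGF1R.

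The third comparison asked which bases were listed in both IPs. A sense base at the same position and strand was shared in 12 of 53 receptors (22.6%), against 14.1% of all protein-coding genes, and 6 receptors (11.3%) had 2 or more, against 5.31%. As in the first comparison, these shares take no account of length. The 12 genes held 51 shared bases, 13 in EPHB2, 11 in IGF1R, 10 in EPHB1, 5 in ROR1, 4 in EGFR and 2 in FGFR2. EPHA2, LMTK2, INSR, PTK7, RYK and EPHA5 had 1 each. Neighbouring bases can come from the same tags. IGF1R had a deletion listed in both IPs at 6 bases in a row, with 2 of 2 tags at each, and EPHB2 a substitution at 3 bases in a row, with 3 of 3 tags in IP 1 and 4 of 4 in IP 2. Joining bases within 10 of each other leaves 44 runs, 11 in EPHB2, 10 in EPHB1 and 6 in IGF1R.

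Counted as runs, 7.52% of receptor runs of IP 1 (44 of 585, interval 5.52 to 9.97) and 6.71% of those of IP 2 (44 of 656, 4.91 to 8.90) held a shared base. In other protein-coding genes it was 5.21% and 4.34%. Without EPHB2, IGF1R and EPHB1 the receptors had 4.36% (interval 2.56 to 6.89) and 3.94% (2.31 to 6.24). These 3 genes hold the most shared bases, 34 of the 51, so leaving them out favours a lower share. No genes were left out of the other set, so the 2 shares are not alike. Of the 51 shared bases 49 were intronic, 41 were substitutions in both IPs, 6 deletions and 2 insertions, and 2 were of different types. Every tag over the base was mutated in both IPs at 46 of them. Among all receptor sense sites every tag was mutated at 86.6% in IP 1 and 81.8% in IP 2. Whether the sequence of these cells differs from GRCh38 at the shared bases was not tested, and the inputs were not analysed. A base listed in both IPs therefore does not by itself show recovery with PARP1.

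The depth at shared bases was low. At 27 of the 51 there were 2 mutated tags in each IP, and 8 had 3 or more in both. The highest were an EGFR intron base with 4 of 4 tags in each IP and the 3′ UTR base of IGF1R shown above. An intron base of EPHB2 had 2 of 2 tags in IP 1 and 7 of 7 in IP 2, and one of LMTK2 had 3 of 3 and 6 of 6.

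**Figure D4:**
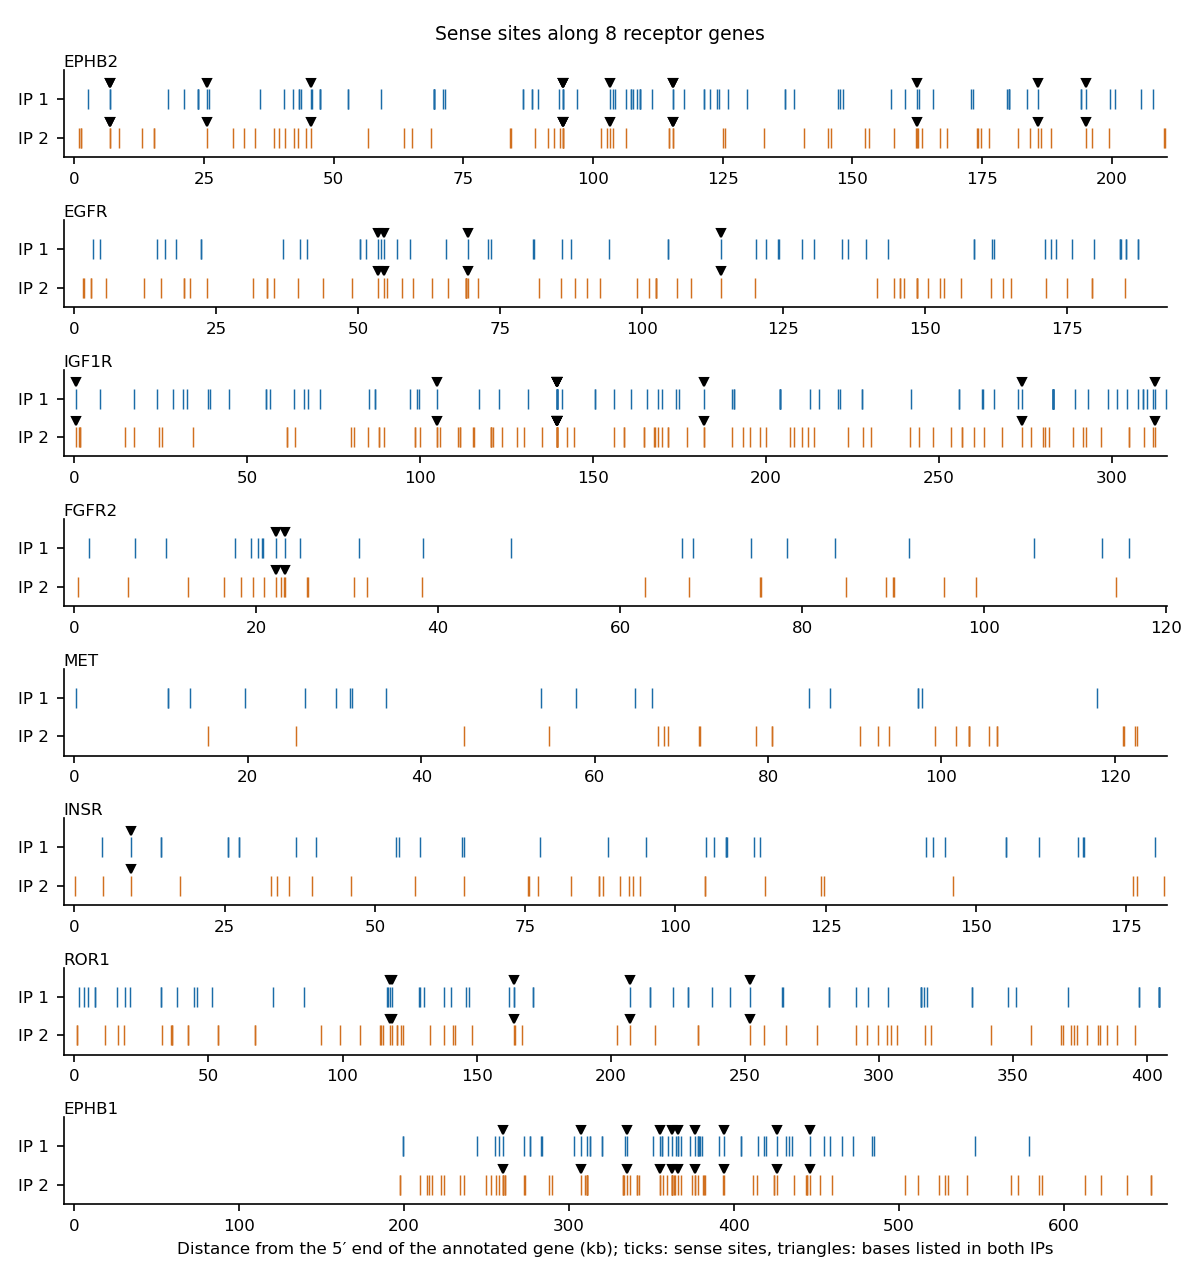
Sense sites along 8 receptor genes, with distance in kb from the annotated 5′ end on the x axis, ticks for the sites of IP 1 (upper row) and IP 2 (lower row) and triangles for bases listed in both. EPHB1 has no assigned site in the first 197.6 kb, and the sites of MET lie mostly in the first part of the gene in IP 1 and the last part in IP 2.

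Along the long genes as a group, sites were as common before as after the midpoint. In receptors over 100 kb the 5′ part of the gene, up to its midpoint, held 50.4% of sites in IP 1 (interval 46.2 to 54.6) and 51.7% in IP 2 (47.8 to 55.7), against 50.5% and 50.4% in all protein-coding genes of that size. The group includes EPHB1, with 18 of 57 sites in IP 1 (31.6%) and 29 of 85 in IP 2 (34.1%) before the midpoint. That midpoint depends on the GENCODE span of EPHB1, and the group was not counted without this gene. For EPHB2 the share before the midpoint was 48.9% and 52.1% and for IGF1R 44.2% and 48.4%. MET differed between the IPs, with 12 of 20 sites before the midpoint in IP 1 (interval 36.1 to 80.9%) and 4 of 27 in IP 2 (14.8%, interval 4.19 to 33.7). MET was singled out after its values were seen, among the 12 genes looked at. In EPHA6 68.8% and 67.9% lay before the midpoint. In FGFR2 it was 60.9% and 59.3%, both shared bases among them.

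By region, introns held 93.3% of the receptor sites in IP 1 and 96.3% in IP 2, against 90.6% and 91.2% in other protein-coding genes. Exons of all classes held 6.72% in IP 1 (44 sites, interval 4.92 to 8.91) and 3.70% in IP 2 (27 sites, 2.46 to 5.34), against 9.38% and 8.80%. Per 10 kb of exon the receptors had 1.03 sites in IP 1 and 0.633 in IP 2, against 0.951 and 1.08 in other protein-coding genes. The exon density was 1.51 times the intron density of the receptors in IP 1 and 0.807 times in IP 2, so its direction differed between the IPs. IGF1R had the most exon sites, 8 and 6, followed by LMTK2 with 5 and 0, ROR1 with 4 and 1, and MET with 2 and 3. EPHA2 had 0 and 4. Of the 44 and 27 exon sites, coding sequence held 22 and 12, 3′ UTRs 21 and 11 and 5′ UTRs 1 and 4. An exon site in both IPs was found for 8 receptors (15.1%), against 14.6% of all protein-coding genes.

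By kind of mutation, the receptors matched other genes within counting error in IP 1 and held a slightly higher share of substitutions in IP 2. The intervals count sites as independent, although the 729 sites of IP 2 fall into 656 runs of bases within 10 of each other. They may therefore be too narrow. Substitutions made up 68.5% in IP 1 (interval 64.8 to 72.1) and 71.5% in IP 2 (68.0 to 74.7), against 67.9% and 67.1% in other protein-coding genes. Deletions made up 25.0% and 23.0% (interval up to 28.5 and 26.3), against 25.7% and 26.5%. Sites with 3 or more mutated tags made up 12.2% and 11.0%, against 10.3% and 11.3%. Such sites were found in both IPs for 13 receptors (24.5%), against 13.9% of all protein-coding genes, shares that take no account of length. The strongest single sites were intronic substitutions of EGFR, with 6 of 6 tags in IP 1 and, at another base, 8 of 8 in IP 2, and of EPHB2, with 6 of 6 in IP 1 and 7 of 7 at 2 other bases in IP 2.

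The receptors were then set beside other genes of their pathway, in lists of ligands, adaptors and downstream proteins, and negative regulators. Of 42 adaptors and downstream genes, 36 (85.7%) had a sense site in both IPs, against 50.8% of all protein-coding genes. A shared base was held by 13 of them, against 14.1% of all protein-coding genes. These shares, and those of the lists below, take no account of length. The median percentile for span of these 42 genes was 76.1 in IP 1 and 72.8 in IP 2. VAV2, a guanine nucleotide exchange factor, carried 105 and 124 sites (4.55 and 5.37 per 10 kb) with 11 shared bases. The adaptors NCK1 and GRB2 carried 28 and 28 sites and 26 and 24 sites, and the kinase AKT1 6 and 9. Of 30 negative regulators, 22 (73.3%) were marked in both IPs, at median percentiles of 65.5 and 64.6. LRIG2, an LRIG family membrane protein, had 35 sites in IP 1 and 9 in IP 2, and SPRED2, an inhibitor of RAS signalling, 30 and 40. The phosphatase DUSP5 had 3 and 6, and SOCS3 2 and 0.

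Of 43 ligand genes, 24 (55.8%) had a sense site in both IPs, against 50.8% of all protein-coding genes, so that this share lay near the background. Their median percentiles were 41.8 and 49.0. EREG, a ligand of EGFR, carried 7 and 17 sites over 23.6 kb (2.96 and 7.20 per 10 kb). FGF2, a ligand of FGF receptors, carried 32 and 28 (4.47 and 3.91 per 10 kb). GAS6, the ligand of AXL, carried 20 and 15 (4.60 and 3.45 per 10 kb) with 2 shared bases, and CSF1, the ligand of CSF1R, 10 and 5. AXL and GAS6 were thus both dense, while CSF1 was dense and CSF1R, at 0.666 and 0.832 per 10 kb, was near the median of its span bin. In the other direction, IGF1 and IGF2 had no sense site in either IP although IGF1R was dense. HGF, the ligand of MET, had 0 and 1 sites. Receptors and ligands were not compared as pairs over the whole list.

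**Figure D5:**
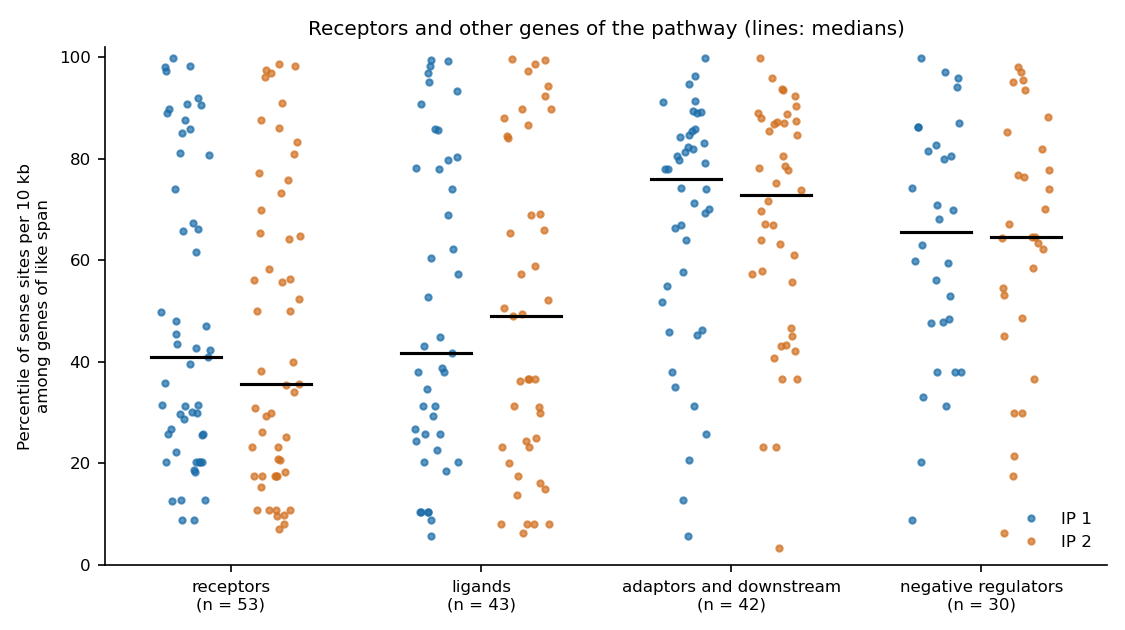
Percentile of sense-site density within the bin of span (y axis) for each receptor and each gene of 3 pathway lists (x axis), with points for IP 1 and IP 2 and lines at the medians. The receptors lie from 7.05 to 99.8, with medians of 41.0 and 35.5, and the adaptors and downstream genes have medians of 76.1 and 72.8.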

How the data were processed

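The tools bcl2fastq and TopHat2 and the build GRCh38 are named by the submitters' processing notes. For the calling of sites and any removal of duplicates, program and settings: not given in the sources used here. Per the file headers, the lists hold counts of tags and of mutated tags at a base, deposited as whole numbers, and an FDR, a corrected p-value. Highest FDRs were 0.00909 and 0.00926. Amplified tags without molecular identifiers are not independent molecules. The lists name no sample in a column, and each was tied to its IP through its name.

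Symbols, spans and exons came from GENCODE release 29, and alternative gene lengths from RefSeq (GRCh38.p14). Sense sites were counted per gene as the lists assign them, with exact Poisson and Clopper-Pearson intervals at 95% (Python 3.11.15, pandas 2.3.3, scipy 1.17.1). No test was run, since the analysed lists hold 1 group. Named in full were the 15 densest receptors, those with 2 or more shared bases or no sense site, the highest and lowest of families of 3 or more, and the 4 densest genes of each pathway list. Other receptors, the ligands IGF1, IGF2 and HGF, and the exon windows of bases listed in 1 IP, were chosen after their values were seen. A marker gene is not reported here. The pathway and marker lists and the members were chosen with earlier results of these data known. Ranking and joining of sites were tested on simulated data. Alternatives were stricter sites, other strand, exon, position, span and overlap rules, and leaving out each IP, for counts, percentiles, named receptors and families.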

Additional observations from a re-analysis of the deposited data

How the results depend on the processing

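The number of receptors with a sense site in both IPs (38) was 43 with either strand counted, 39 with sites placed by position, and 41 to 42 with 1 IP alone. It was 24 with only sites below the most common FDR, 13 with 3 or more mutated tags and 8 with exon sites only, settings that keep fewer sites. The 12 receptors with a shared base became 13 without regard to strand and 12 within 10 bases, but 5 below the most common FDR and 4 with 3 or more mutated tags. The median percentile for span (mean of the IPs, 35.1) was 41.1 with 3 or more mutated tags and 35.5 to 41.0 with 1 IP alone. It lay between 31.2 and 37.2 under the other alternatives. The 5 densest receptors were the same genes under the FDR, run, strand, position and RefSeq alternatives. IGF1R gave way to EPHB4 with 3 or more mutated tags and in IP 1 alone, and to FGFR4 in IP 2 alone. By exon sites IGF1R, EPHA2, ROR1, MET and AXL came first, without EPHB2 and EGFR. Relative to all protein-coding genes, 3 families crossed the common density. ErbB (0.682) stood at 1.32 with 3 or more mutated tags. ROR (1.01) stood at 0.881 with 3 or more mutated tags, 0.790 below the most common FDR and 0.953 to 1.07 with 1 IP alone. RYK (0.983) stood at 1.03, 1.39 and 0.915 to 1.05 under the same settings. The cause was not tested. Joined runs, RefSeq lengths, the family alternatives by site and the orders by exon and by IP were chosen after seeing the data. Leaving out an IP could not be tried for shared bases. No paired analysis was possible because the inputs, which carry the same numbers as the IPs, were not analysed here. Low depth limits the short genes most.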
